A study of Mus musculus with 6 samples.

Results

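The 10 genes described here are the S100 genes S100a4, S100a6, S100a10, S100a11 and S100a13, the annexins Anxa1 and Anxa2, the galectin Lgals1, the actin-capping gene Capg and the intermediate filament gene Vim. They were matched by symbol in the deposited count table, which found all 10 among 49315 genes, and all 10 passed the filter on low counts. The members were chosen by the expression values of these same libraries, from the comparison of the groups below. Their differences between the groups are therefore given as a description, with no p-value, and counts of members that passed a threshold support nothing.

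The libraries are bulk RNA sequencing of total CD8+ T cells sorted from the tumor-draining lymph nodes of wild-type female C57Bl6/J mice bearing B16F10 melanomas. The series text names the tumor B16F10, while the sample labels spell it B26F10. The monotherapy group (n = 3) received 1 dose of HCW9218, named in the series title as a TGF-βRII and IL-15 immunotherapeutic, under the skin. The combination group (n = 3) received HCW9218 in the same way with anti PD1 given into the peritoneum. Treatment began at tumor volumes of 50 to 100 mm3, and nodes were taken 5 days later. Every mouse of both groups had a tumor and HCW9218, so values are relative to HCW9218 alone. The age of the mice is not given in the sources used here.

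S100 proteins are small EF-hand proteins that mostly bind calcium and then attach to partner proteins, and annexins bind membrane phospholipids when calcium rises. Galectin-1, the product of Lgals1, binds β-galactoside sugars on cell surfaces, Capg caps the fast-growing ends of actin filaments, and vimentin forms intermediate filaments. In mouse CD8+ T cells many of these genes are low in naive cells and higher in effector and memory cells, where they accompany changes in cell shape, adhesion and migration.

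Depth was 34568074 to 40101346 counts per library. All 9 CD8 T cell markers were detected, and together they took 7227 to 8676 CPM (the count relative to a library total scaled by TMM factors) in monotherapy and 6675 to 8680 CPM in the combination. Some features moved with the group or within it, and their part in the members' values was not tested. The melanocyte list of 10 genes, all with some counts, summed to 34.6 to 39.6 CPM in monotherapy and 41.4 to 64.5 CPM in the combination. Its pigment-enzyme genes Dct and Tyrp1 had 0 and 0 counts in combination replicate 1, against 301 and 281 in replicate 2 and 377 and 366 in replicate 3. In monotherapy replicates 1, 2 and 3 Dct had 0, 0 and 0 counts and Tyrp1 1, 0 and 0. Pmel and Trpm1, with 822 to 1153 and 387 to 535 counts per library, made up most of the list's sum in every library. The natural killer list of 7 genes summed to 7.21 to 8.69 CPM in monotherapy and 13.2 to 22.5 CPM in the combination. Klre1 alone of its 5 tested genes rose, and its defining marker Ncr1 stayed at 0.0508 to 0.362 CPM in all libraries. The macrophage and monocyte list of 13 genes ran from 9.58 to 22.4 CPM and from 12.9 to 15.0 CPM. The dendritic cell list of 9 genes ran from 16.4 to 36.1 and from 25.7 to 28.4 CPM, and the B cell list of 10 from 495 to 563 and from 488 to 609 CPM. The CD4 T cell list of 6 summed to 48.0 to 56.8 and 42.3 to 49.9 CPM, and the stromal and endothelial list of 12, with Ccl19 at 0 counts, to 137 to 181 and 122 to 144 CPM. The neutrophil list of 9 had 0.279 to 4.44 and 0.365 to 0.907 CPM. The 6 erythroid marker genes with counts, mostly globins, summed to 2.10 to 7.62 CPM in monotherapy and 1.06 to 1.88 CPM in the combination, so the groups did not overlap, and 0 of 3 tested were called.

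The 5 S100 members lie on mouse chromosome 3 within a stretch of 3.05 Mb that holds 14 S100 genes in the deposited table. S100a13, S100a4 and S100a6 sit in the denser end of the stretch. S100a4 (chr3:90603771-90606045) and S100a6 (chr3:90612882-90624181), both on the plus strand, are separated by 6.84 kb. S100a11 (chr3:93520488-93526287) and S100a10 (chr3:93555080-93564643) form a separate pair 2.90 Mb beyond S100a6, with 28.8 kb between them. S100a13 lies at chr3:90514435-90524581. These positions are on GRCm38, by comparison with GENCODE M21.

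The bases before the start of transcription are shown for S100a4, S100a6 and Anxa2, the members with a RefSeq promoter entry that differed most between the groups, and for S100a11, which differed least. The 4 sequences, 120 bases each, come from RefSeq promoter windows on GRCm38.p6, are written 5′ to 3′ on the plus strand and end before the gene's first deposited exon base. Capitals mark the motifs searched on both strands, namely TATAAA (the TATA box), GGGCGG (the GC box), TGANTCA (the AP-1 site) and AGGTGTGA (the T-box site).
S100a4, chr3:90603650-90603769: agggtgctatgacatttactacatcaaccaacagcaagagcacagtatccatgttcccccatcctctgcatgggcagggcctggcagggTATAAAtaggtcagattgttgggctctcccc
S100a6, chr3:90612762-90612881: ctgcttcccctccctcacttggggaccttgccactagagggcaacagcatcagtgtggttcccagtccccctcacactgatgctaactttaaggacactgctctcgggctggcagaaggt
S100a11, chr3:93520368-93520487: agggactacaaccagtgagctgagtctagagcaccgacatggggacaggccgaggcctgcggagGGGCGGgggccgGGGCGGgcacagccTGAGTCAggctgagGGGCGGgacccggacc
Anxa2, chr9:69453500-69453619: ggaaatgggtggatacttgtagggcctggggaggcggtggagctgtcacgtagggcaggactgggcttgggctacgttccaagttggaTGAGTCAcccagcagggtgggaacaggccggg
RefSeq held a window for 8 of the 10 members. Over 250 bases before the RefSeq start, TATAAA was found in 4 of the 8 windows (S100a4, Vim, Anxa1 and Anxa2) and in 12.4% of 32851 mouse windows. GGGCGG and TGANTCA were each found in 2 of the 8, S100a11 and Anxa2, and in 32.7% and 6.75% of all windows. AGGTGTGA was found in 0 of the 8 and in 1.12% of all windows. S100a6, S100a13 and Capg held none of the 4 motifs. No matches of different motifs overlapped. The TATAAA and GGGCGG matches of Anxa2 and the farther TGANTCA match of S100a11 lie outside the 120 bases shown. The windows of Vim, Capg and Anxa1 lie inside the gene as the deposited file bounds it.

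**Figure D1:**
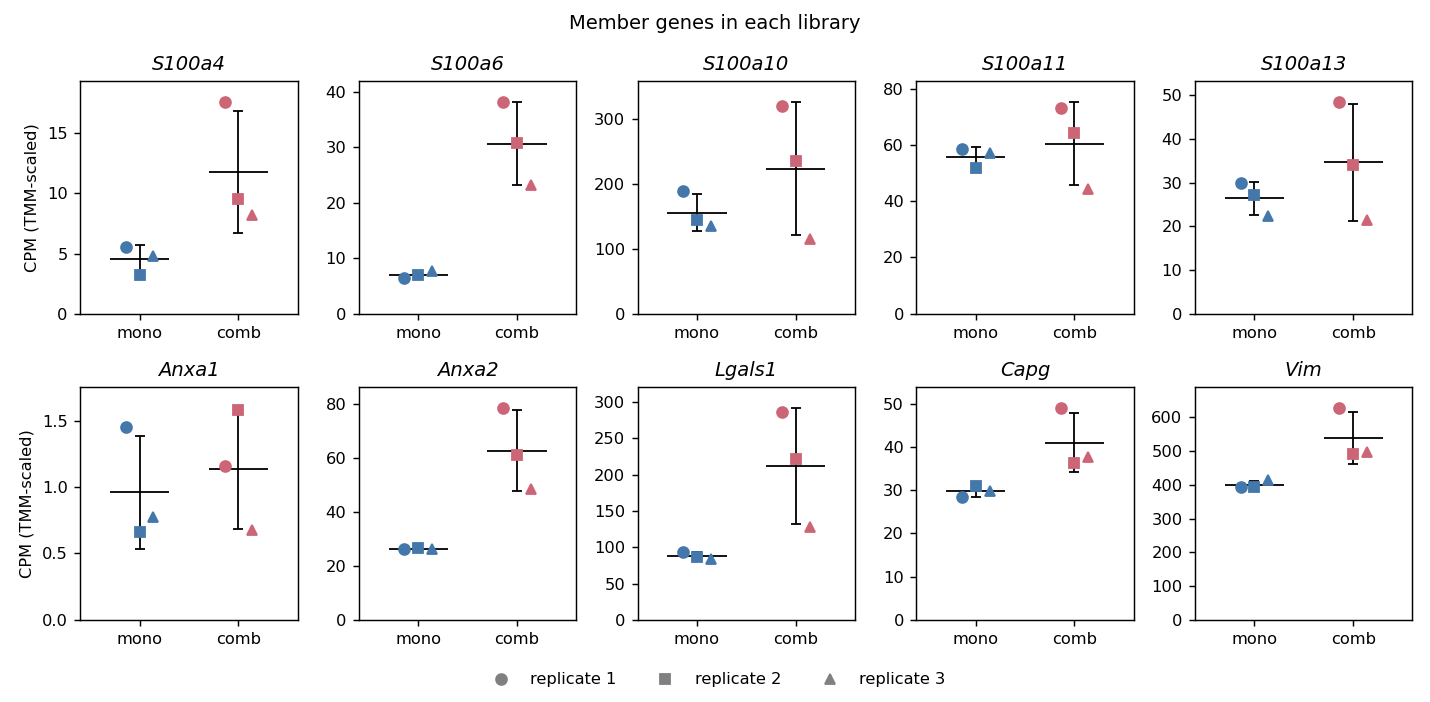
CPM (scaled by TMM factors) of each member in the monotherapy (mono) and combination (comb) libraries, with symbols for the replicate number, lines for the group mean and bars for the SD (n = 3). For S100a4, S100a6, Anxa2, Lgals1, Capg and Vim all 3 combination libraries lie above the monotherapy libraries, and for the other 4 genes the groups overlap.

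S100a6, also called calcyclin, binds the ubiquitin-ligase adaptor Cacybp, and showed the widest separation of the members. It had 6.41, 7.04 and 7.70 CPM in monotherapy replicates 1, 2 and 3, and 38.1, 30.7 and 23.1 CPM in combination replicates 1, 2 and 3. The lowest combination library lay far above the highest monotherapy library. The fitted difference was 2.12 ± 0.20 (SE) on the log2 scale, or 4.34-fold. In bulk RNA a larger share of cells that carry the transcript and more transcript per cell cannot be told apart, here and for every gene below.

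S100a4, which binds non-muscle myosin IIA and is linked to cell motility, was the other S100 member whose groups did not overlap. Its levels were 5.54, 3.25 and 4.80 CPM in monotherapy and 17.6, 9.57 and 8.21 CPM in the combination. Combination replicate 1 stood well above replicates 2 and 3, which were closer to each other. The log2 difference was 1.38 ± 0.31 (SE), which is 0.99 without combination replicate 1. A same-strand gene, Gm42674, shares 302 of the 584 exon bases of S100a4 and had 0 counts in all 6 libraries. No read in the shared bases was thus credited to Gm42674, but whether such reads were credited to S100a4 or left out is not given in the labels. The level of S100a4 per kilobase, its place among the members and its ratio to S100a6 are therefore uncertain. If such reads were left out, that level and that ratio would be too low.

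S100a10, or p11, does not bind calcium and pairs with annexin A2 in a complex at the plasma membrane. It was at 188, 143 and 135 CPM in monotherapy and at 319, 235 and 115 CPM in the combination. Combination replicate 3 fell below every monotherapy library, while replicates 1 and 2 lay above them, so the groups overlapped. The log2 difference of 0.52 ± 0.31 (SE) was 0.83 without combination replicate 3 and 0.19 without combination replicate 1.

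S100a13, which takes part in the release of proteins that lack a signal peptide, followed the same order of libraries. It had 29.9, 27.1 and 22.4 CPM in monotherapy and 48.5, 34.1 and 21.6 CPM in the combination. Again replicate 3 of the combination was the lowest of all 6 libraries. The log2 difference was 0.39 ± 0.26 (SE), and ran from 0.09 without combination replicate 1 to 0.64 without combination replicate 3.

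S100a11, a calcium-dependent partner of annexin A1, had 58.7, 52.0 and 57.1 CPM in monotherapy and 73.1, 64.2 and 44.3 CPM in the combination. The group means of 55.9 ± 3.52 and 60.5 ± 14.7 CPM (SD, n = 3 each) differed by less than the spread of the combination libraries. The log2 difference of 0.11 ± 0.18 (SE) changed sign, to -0.03, without combination replicate 1.

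The annexins differed from each other in level and in separation of the groups. Anxa2 (chr9:69453620-69491795, plus strand) links membranes to actin. It had 26.2, 26.5 and 26.2 CPM in monotherapy, a coefficient of variation of 0.617%, and 78.5, 61.2 and 48.6 CPM in the combination, where it was 24.0%. All 3 combination libraries lay above a tight monotherapy group, and the log2 difference was 1.25 ± 0.18 (SE), or 2.39-fold. An opposite-strand gene, Gm16144, shares 98 of the 3731 exon bases of Anxa2 and had 3 to 12 counts per library, against 942 to 2585 for Anxa2.

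Anxa1 (chr19:20373428-20390944, minus strand) is induced by glucocorticoids and acts through formyl peptide receptors. It was barely counted, at 52, 26 and 32 reads in monotherapy and 38, 60 and 26 reads in the combination, or 0.661 to 1.45 and 0.673 to 1.58 CPM. The exact 95% Poisson intervals of the libraries, which cover counting error only, ran from 17.0 to 38.1 reads at the lowest count and from 45.8 to 77.2 at the highest. The groups overlapped entirely, the log2 difference was 0.25 ± 0.44 (SE), and it was -0.06 without combination replicate 2. Of the formyl peptide receptor genes Fpr1 and Fpr2, neither passed the count filter.

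Lgals1 (chr15:78926725-78930465, plus strand), whose product can induce death or restraint of activated T cells when secreted, had 94.2, 87.0 and 84.1 CPM in monotherapy. Combination replicates 1, 2 and 3 had 286, 221 and 128 CPM. Each of them exceeded each monotherapy library, though replicate 3 stood much nearer to monotherapy than the others. The log2 difference was 1.26 ± 0.25 (SE), or 2.39-fold, and ran from 1.00 without combination replicate 1 to 1.52 without combination replicate 3.

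Capg and Vim, the cytoskeletal members, had small differences and tight groups. Capg (chr6:72544391-72562983, plus strand) had 28.5, 31.0 and 29.8 CPM in monotherapy and 48.9, 36.3 and 37.7 CPM in the combination, a log2 difference of 0.46 ± 0.15 (SE). Vim (chr2:13573927-13582826, plus strand) had 394, 394 and 414 CPM and 627, 493 and 498 CPM, a log2 difference of 0.43 ± 0.16 (SE). In both genes combination replicate 1 stood above the other combination libraries, which were close to each other and above monotherapy.

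**Figure D2:**
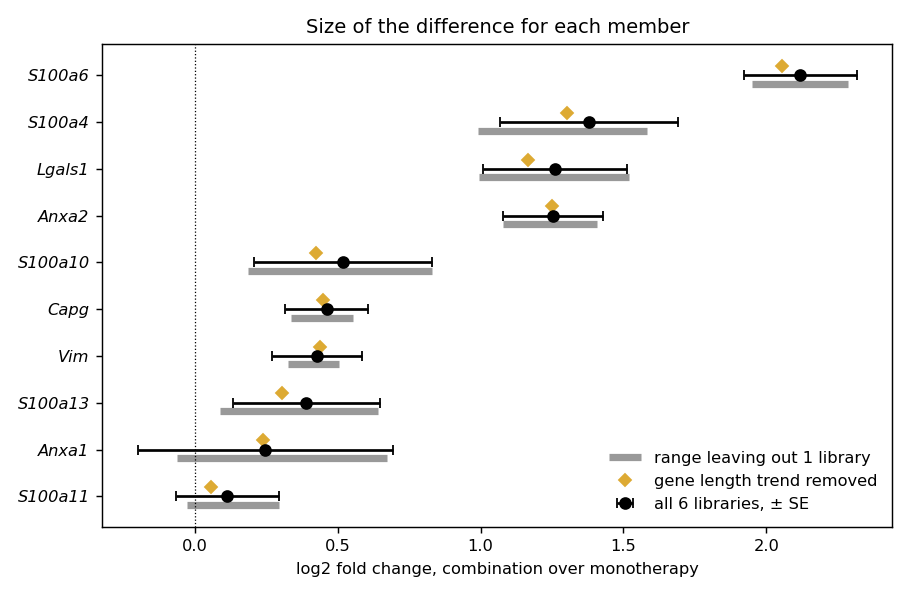
Fitted log2 fold change of the combination over monotherapy for each member (black points, bars are SE), its range when 1 of the 6 libraries is left out (grey), and its value after removing each library's trend with gene length (yellow). S100a6 lies at 2.12, S100a4, Lgals1 and Anxa2 between 1.25 and 1.38, and the other 6 members between 0.11 and 0.52, with the grey ranges of S100a11 and Anxa1 crossing 0.

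By size the members thus fell into S100a6, then S100a4, Lgals1 and Anxa2, then 6 genes below 0.53 on the log2 scale. All 10 fitted differences were above 0, with a median of 0.49, while over 15142 tested genes the median was -0.00 and 49.9% lay above 0. In edgeR's quasi-likelihood fit S100a6 and Anxa2 were among the genes called higher at a Benjamini-Hochberg adjusted p under 0.05, 2 of 10 members, where 0.951% of all tested genes were called higher. For 6 of 10 members every combination library lay above every monotherapy library, as for 7.17% of all tested genes. For 0 of 10 they all lay below, as for 7.54% of all tested genes. DESeq2 called 4 of 10 members higher, against 1.86% of all tested genes, and limma-voom 2 of 10, against 0.819%. Nothing is read from these counts, because this contrast chose the members. Without any 1 monotherapy replicate S100a6 alone was called. Over all tested genes 32, 49 and 33 were then called higher without replicates 1, 2 and 3, against 144 with all libraries. Without combination replicate 3, S100a4, S100a6, S100a10, Anxa2 and Lgals1 were called, and 233 of all tested genes were called higher.

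The levels of different genes can be compared once divided by gene length, as CPM per kilobase of the deposited length. That length counts every annotated exon base, whether or not these cells use it, so the levels and places below are approximate. In monotherapy S100a10 (128 ± 23.7, SD, n = 3), Lgals1 (111 ± 6.48) and S100a11 (109 ± 6.89) formed the top of the order with overlapping libraries, and each exceeded 97% of the tested genes. Vim followed at 84.4 ± 2.47 CPM per kb and S100a13 at 37.0 ± 5.28. Capg lay at 11.8 ± 0.50, ahead of S100a4 at 7.76 ± 2.00, Anxa2 at 7.05 ± 0.0435 and S100a6 at 5.15 ± 0.472. S100a4 overlapped both Anxa2 and S100a6 in range. Anxa1, at 0.368 ± 0.163 CPM per kb, was the lowest member.

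In the combination the same scale put Lgals1 (265 ± 99.8 CPM per kb, SD, n = 3) first, with S100a10 (184 ± 84.4) overlapping it. S100a11 (118 ± 28.8) and Vim (114 ± 16.1) came next and overlapped S100a10 and each other, before S100a13 at 48.5 ± 18.8. S100a6 (22.4 ± 5.48), S100a4 (20.2 ± 8.68), Anxa2 (16.8 ± 4.03) and Capg (16.2 ± 2.73) had overlapping ranges. S100a6 thus went from the ninth place to the sixth, from above 53.1% of tested genes to above 83.6%. Anxa1 stayed last at 0.436 ± 0.174 CPM per kb.

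**Figure D3:**
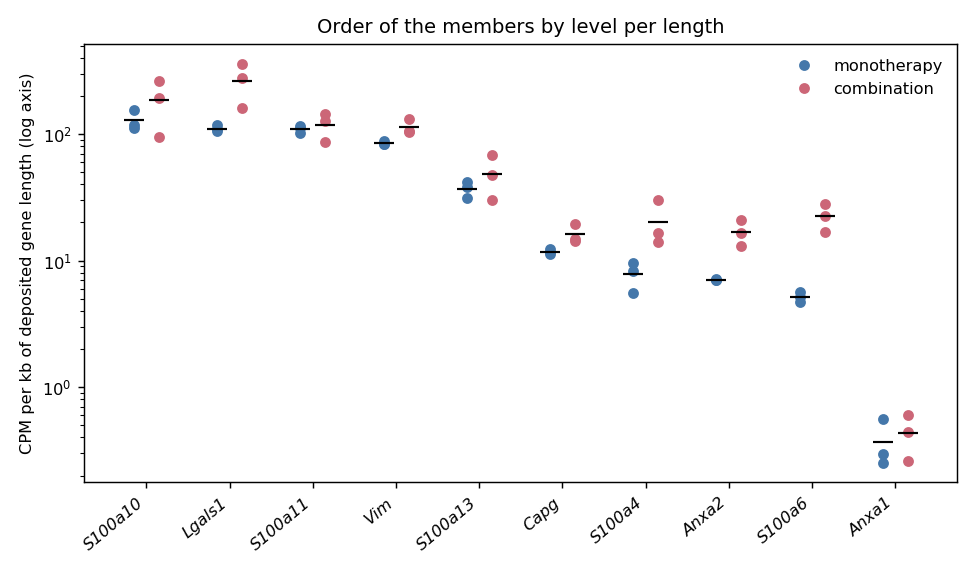
CPM per kilobase of deposited gene length (log axis) of each member in the 3 monotherapy and 3 combination libraries, with lines for the group means and genes ordered by the monotherapy mean. S100a10, Lgals1, S100a11 and Vim lie near or above 84 CPM per kb in both groups' means, and Anxa1 lies below 1.

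Ratios within a library do not depend on its scaling, but they can carry the libraries' trend with gene length given below. S100a10 is 1212 bases long and Anxa2 3731, S100a4 584 and S100a6 1367, and Lgals1 800 and Vim 4743. The part of the trend in these ratios was not tested. S100a10, whose protein pairs with annexin A2, had 22.1, 16.7 and 15.9 times the per-kilobase level of Anxa2 in monotherapy. In the combination the ratio was 12.5, 11.8 and 7.31, below monotherapy in all 3 libraries. The S100a4 to S100a6 ratio was 2.03, 1.08 and 1.46 in monotherapy and 1.08, 0.730 and 0.832 in the combination, so the groups met at 1.08. Lgals1 had 1.42, 1.31 and 1.2 times the per-kilobase level of Vim in monotherapy and 2.71, 2.66 and 1.52 times in the combination. These ratios carry the group difference by which the members were chosen.

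Within the combination group most members shared 1 order of the libraries. Combination replicate 1 was the highest of the 3 for 9 of 10 members, all but Anxa1, and combination replicate 3 was the lowest for 8, all but Capg and Vim. On the log2 scale replicate 1 lay above the group mean for 10 of 10 members, with a median deviation of 0.35, and replicate 3 below it for 10 of 10, with a median of -0.43. The same pattern, replicate 1 above and replicate 3 below the mean, was found in 41.3% of all tested genes and in 7 of the 9 CD8 T cell markers, so it was not particular to the members. Cd3d, for example, a chain of the T cell receptor complex, had 688, 527 and 339 CPM in combination replicates 1, 2 and 3. Cd3e, at 443, 426 and 497 CPM, and Cd8a, at 1440, 1588 and 1460 CPM, did not follow the pattern. The members' summed level was 1538, 1187 and 925 CPM in combination replicates 1, 2 and 3. The monotherapy libraries were closer, at 833, 772 and 782 CPM. Dct and Tyrp1 were at 0 counts in combination replicate 1 and highest in replicate 3, and any relation to the members' values was not tested.

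A trend with gene length ran through the same libraries. Among 2194 tested genes of 1 to 2 kb, the median deviation from the group mean was 0.22 in combination replicate 1 and -0.19 in replicate 3. Among 1821 genes over 8 kb it was -0.20 and 0.17. Monotherapy replicates 1 and 3 had a smaller trend of the same direction, at 0.06 and -0.03 for 1 to 2 kb and -0.05 and 0.03 over 8 kb. Of the members, 6 are under 2 kb long and none is over 8 kb. With the trend removed from each library, the log2 differences were 2.05 for S100a6, 1.30 for S100a4, 1.25 for Anxa2, 1.17 for Lgals1, 0.42 for S100a10, 0.30 for S100a13 and 0.06 for S100a11.

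**Figure D4:**
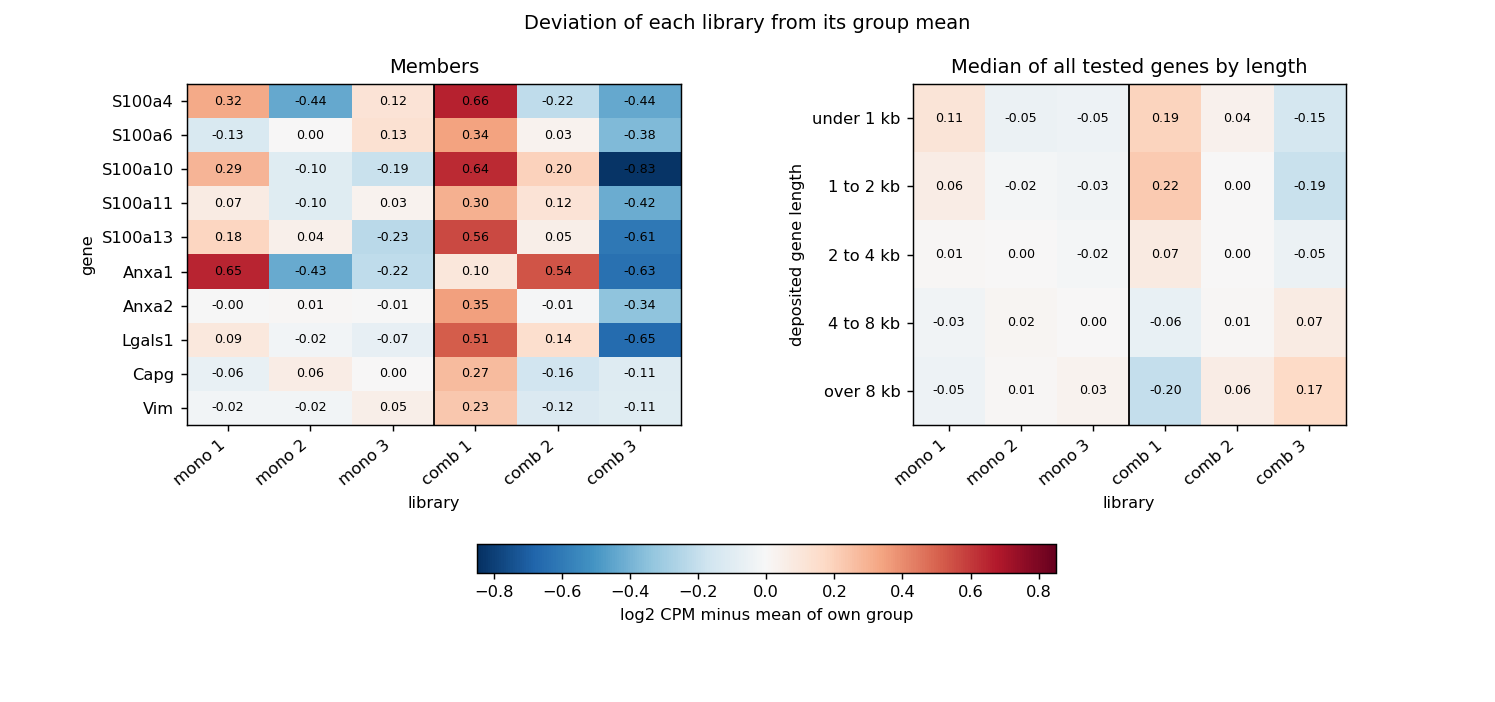
Log2 CPM minus the mean of the library's own group, for each member (left) and as the median of all tested genes in 5 classes of deposited gene length (right), with a line between the monotherapy and combination libraries. All 10 members are above the mean in combination replicate 1 and below it in replicate 3, and genes under 2 kb shift the same way by up to 0.22.

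Most other S100 genes of the chromosome were hardly counted. Of the 9 that are no members, S100a1, which lies just before S100a13 on the opposite strand, alone passed the count filter, at 0.542 ± 0.0786 and 1.21 ± 0.278 CPM (SD, n = 3 each), and it was not called (edgeR adjusted p = 0.315). S100a3, which ends just before S100a4, had 1, 0 and 1 counts in monotherapy and 10, 9 and 5 in the combination and was not tested. S100a8 and S100a9, which neutrophils carry in large amounts, had 35 and 57 counts in monotherapy replicate 3 and at most 1 in any other library. S100a2, S100a5, S100a7a, S100a14 and S100a16 lay at or below 0.124 CPM per kb in both group means. Monotherapy replicate 3 also held the highest summed neutrophil list, at 4.44 CPM.

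**Figure D5:**
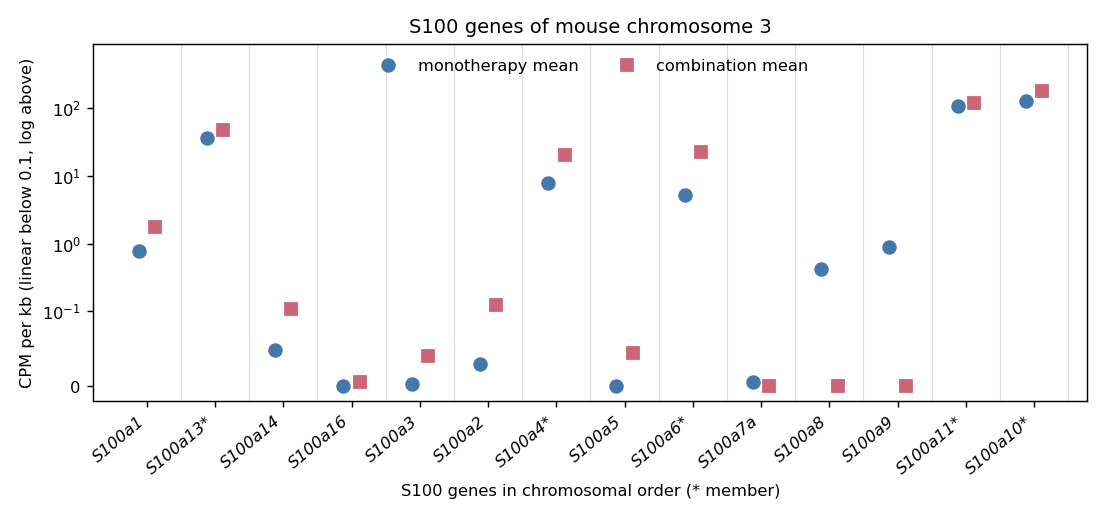
Mean CPM per kilobase (linear below 0.1, log above) in monotherapy and combination of the 14 S100 genes of mouse chromosome 3 in chromosomal order, with members starred. The 5 members lie between 5.15 and 184 CPM per kb, S100a1 lies at 0.780 and 1.75, and all other genes of the cluster lie below 1.

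The wider families were read from a list of 49 other S100, annexin, galectin, gelsolin and capping, and intermediate filament genes, of which 25 could be tested. In edgeR 0 rose and 0 fell at an adjusted p under 0.05, while DESeq2 called 1 higher and limma-voom 0. An unadjusted edgeR p under 0.05 was found for 3 of 25, against 8.0% of all tested genes. The median log2 difference was 0.09, and 19 of 25 lay above 0. The 7 other annexins tested lay between -0.09 and 0.32. Among them Anxa6, the most abundant per length of the annexins named here at 248 and 276 CPM per kb, had a log2 difference of 0.15 ± 0.15 (SE; edgeR adjusted p = 0.934).

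Of the 6 other galectins tested, Lgals3, which also binds β-galactosides, had the largest difference. It had 2.42, 2.26 and 2.10 CPM in monotherapy and 4.83, 3.46 and 2.72 CPM in the combination, with groups that did not overlap. The difference of 0.70 ± 0.27 (SE) on the log2 scale was not called (edgeR adjusted p = 0.494). Lmnb1, a nuclear lamin, had 55.0 ± 5.69 CPM in monotherapy against 91.5 ± 12.3 in the combination (SD, n = 3 each) and missed the threshold (edgeR adjusted p = 0.0528, 0.00130 to 0.303 over 13 other settings). It is the gene that DESeq2 called. Capza2, an actin-capping subunit, had 0.35 ± 0.20 (edgeR adjusted p = 0.766).

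Binding partners and receptors of the members' proteins showed no call. Of 30 listed, 25 were tested, 0 rose and 0 fell in edgeR, and DESeq2 and limma-voom called 0. An unadjusted edgeR p under 0.05 was found for 1 of 25, against 8.0% of all tested genes. The median log2 difference was -0.01. Ager, which encodes the receptor RAGE that several S100 proteins bind, had 3.69 ± 0.590 and 6.06 ± 1.14 CPM (SD, n = 3 each; edgeR adjusted p = 0.30). Trpv6, a calcium channel that binds S100a10, had 0.815 ± 0.211 and 0.457 ± 0.0172 CPM (edgeR adjusted p = 0.652). Myh10, a non-muscle myosin, and St6gal1, which adds the sialic acid that blocks galectin-1 binding, had log2 differences of 0.46 ± 0.23 and 0.22 ± 0.13 (edgeR adjusted p = 0.696 and 0.824).

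Ahnak, a very large scaffold protein bound by S100a10 and annexin A2, ordered the combination libraries the other way from the members. It had 461, 466 and 492 CPM in monotherapy and 340, 706 and 897 CPM in combination replicates 1, 2 and 3. It was called in edgeR without combination replicate 1, and not with all libraries (adjusted p = 0.845). Cacybp, the partner of S100a6, was at 120, 96.4 and 90.6 CPM and at 184, 151 and 77.1 CPM, in the members' order, and was called without combination replicate 3 only.

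Genes known to accompany effector and memory CD8 T cells did include calls. Of 25 listed, 24 were tested, 5 rose, 0 fell and 19 did not pass, where 0.951% of all tested genes rose, with a median log2 difference of 0.38 and 21 above 0. An unadjusted edgeR p under 0.05 was found, in either direction, for 10 of 24, against 8.0% of all tested genes. The calls of Tbx21, Cxcr3, Cd44 and Ccl5 were known when the list was drawn up. These counts are therefore a description and not independent evidence for the list. Tbx21, the gene of the transcription factor T-bet, had 7.94, 13 and 12.8 CPM in monotherapy and 30.7, 32.5 and 35.7 CPM in the combination. Those groups did not overlap, and the combination libraries were close to each other. The other genes that rose were the adhesion receptor Cd44, by 0.87 ± 0.13 (SE) on the log2 scale, the motor protein gene Myo1f, by 0.94 ± 0.15, the chemokine gene Ccl5, by 1.15 ± 0.20, and the chemokine receptor gene Cxcr3, by 0.92 ± 0.12. Their edgeR adjusted p were 0.0161, 0.0177, 0.0274 and 0.00680, and that of Tbx21 was 0.00691. Without any 1 monotherapy replicate Tbx21 alone of the list was called, and without combination replicate 2 Tbx21 and Cxcr3. In those settings fewer of all tested genes were called higher too, 32 to 49 and 69, against 144 with all libraries. The natural killer list given above was also higher in the combination, and its part in the calls of the effector and memory list was not tested.

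Of these 5 genes, 4 did not follow the members' order of the combination libraries. Cxcr3 had 90.5, 93.3 and 90.9 CPM in combination replicates 1, 2 and 3, Cd44 78.5, 97.4 and 85.8 and Myo1f 157, 171 and 208. In these 3 genes and in Tbx21 replicate 1 was the lowest, though for Cxcr3 only narrowly. Ccl5, at 115, 73.8 and 68.6 CPM, was in the members' order. The 3 tested genes of the list below 0 were Bhlhe40, Itga4 and Id2, with log2 differences of -0.63 ± 0.28, -0.51 ± 0.19 and -0.37 ± 0.22 (SE; edgeR adjusted p = 0.603, 0.450 and 0.795). Itga4, an integrin chain, had 393, 423 and 392 CPM in monotherapy and 208, 305 and 335 CPM in the combination, with no overlap. Other listed genes that did not pass include Plp2 at 0.51 ± 0.15 and S1pr5, with 11 to 39 counts per library, at 1.16 ± 0.49 (SE) on the log2 scale. Crip1 was at 0.45 ± 0.26, Emp3 at 0.02 ± 0.15 and Tagln2 at 0.01 ± 0.13. Klrg1, a marker of terminal effector cells, was too low to test, at 0.0693 ± 0.0186 and 0.361 ± 0.213 CPM (SD, n = 3 each).

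Among 12 genes of naive and central memory T cells 0 rose and 0 fell in edgeR, and DESeq2 and limma-voom called 0. An unadjusted edgeR p under 0.05 was found for 0 of 12, against 8.0% of all tested genes. The median log2 difference was -0.08, and 4 lay above 0. Il7r, the IL-7 receptor chain, had 523 ± 52.8 and 674 ± 71.2 CPM (SD, n = 3 each; edgeR adjusted p = 0.626). The repressor gene Bach2, the egress receptor gene S1pr1 and Foxo1 had log2 differences of -0.28 ± 0.17, -0.22 ± 0.13 and -0.18 ± 0.13 (SE).

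Outside the members, the genes closest to their shared profile were found as those with the smallest root-mean-square distance, in log2 units over the 6 libraries, from the mean centred profile of the 10 members. Of 10886 genes with a mean of at least 2 CPM, the 8 nearest were Lgals3 (0.0965), Hopx (0.103), Ifngr1 (0.104), 5430427O19Rik (0.112), Gm15542 (0.112), Gmnn (0.114), Cd160 (0.117) and Bbs9 (0.118). The members themselves lay at 0.232 (Lgals1) to 0.671 (S100a6) from their own mean. Hopx, a homeodomain protein gene of effector and memory T cells, had 43.2, 34.2 and 35.0 CPM in monotherapy and 78.4, 76.9 and 49.1 CPM in the combination. Ifngr1, which encodes a chain of the interferon-γ receptor, had 206, 186 and 168 CPM and 362, 334 and 242 CPM. Cd160, a receptor of cytotoxic lymphocytes, had 30.5, 23.5 and 23.7 CPM and 54.4, 54.1 and 32.2 CPM. In all 3 genes the groups did not overlap and combination replicate 3 stood nearest to monotherapy. None of the 8 was called in edgeR at an adjusted p under 0.05, and this likeness includes the group difference by which the members were chosen.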

How the data were processed

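The values used are the deposited counts, given as integers per gene and library before any normalization. Libraries were made from poly(A)-selected RNA, per the labels' protocols. The submitters' processing notes name STAR 2.5.2b, featureCounts, Subread 1.5.2 and DESeq2. Build, annotation release, strand setting and the handling of reads with several matches are not stated there, so a gene and its antisense neighbour may share reads. The per-library counts equalled those of the series table in 6 of 6 libraries, and 6 other columns of that table were not used. Of 48970 genes found in GENCODE M21 (GRCm38), 91.4% had identical coordinates, as did 10 of 10 members.

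The analysis ran in R 4.3.3 (edgeR 4.0.16, limma 3.58.1, DESeq2 1.42.0). Genes were kept with filterByExpr, which left 15142, and TMM scaling factors ran from 0.901 to 1.12. edgeR's quasi-likelihood test compared combination with monotherapy, with no covariate, and Benjamini-Hochberg adjustment over all tested genes. "Rose" and "fell" mean an adjusted p under 0.05. The SE was obtained from the unshrunken log2 coefficient and its F statistic. Log2 CPM values use a prior count of 2. The test was checked on simulated data, drawn independently for each library with edgeR's trended dispersion. The simulation held no gene-specific dispersion, no length trend and no order of libraries shared by genes. The shares that follow hold for that cleaner setting only. The test called 56% of genes simulated at 2-fold and 60.9% at 0.5-fold. At 1.5-fold and 0.667-fold it called 16.3% and 22.4%, and of unchanged genes 0.014%. Differences of these sizes can thus go uncalled, and a gene not called is not shown to be unchanged. Alternatives were other scalings, no filter, DESeq2, limma-voom, a replicate block, left-out libraries and a length correction.

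The members and gene lists were chosen with earlier results of these data known, and calls of Tbx21, Cxcr3, Cd44 and Ccl5 were among those results. Named genes are all members, the called genes of each list or otherwise up to 4 with the smallest p, the 8 nearest profiles and the S100 genes of chromosome 3. Beyond that rule, Anxa6, Ahnak, Cacybp, Bhlhe40, Itga4, Id2, Plp2, S1pr5, Crip1, Emp3, Tagln2 and Klrg1 were named after their values were seen. So were the CD8 T cell markers Cd3d, Cd3e and Cd8a. The series text gives 3 mice per group, taken here as 1 mouse per library, which the sample labels do not state. 1 marker gene is not reported here.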

Additional observations from a re-analysis of the deposited data

How the results depend on the processing

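The members' median log2 difference of 0.49 stayed within the replicate spread in 13 of 14 settings, at 0.33 to 0.74 over the left-out libraries. It was 0.95 without combination replicates 2 and 3, which held Dct and Tyrp1; that fit has 1 combination library, assumed to vary like the others. Members called numbered 2 and became 4 with no filter on low counts, with DESeq2, with the replicate block and with the gene length trend removed (a setting chosen after seeing the data), and 1 to 5 over the left-out libraries. With the same 4 settings 1 relative, Lmnb1, was higher, and with no filter 2 were lower, S100a8 and S100a9, whose counts come from monotherapy replicate 3. Over the left-out libraries 0 to 1 relatives, 0 to 1 partners and 1 to 6 effector and memory genes were higher. The lists are not separate. Ahnak is in both the partner and the effector and memory lists, and its call without combination replicate 1 counts in both. Lgals3 is in both the relatives and the effector and memory lists. Over all genes, 144 were higher and 20 lower, against 340 and 113 with no filter, 282 and 72 with DESeq2, 231 and 57 with the replicate block, 32 lower with the length trend removed, and 32 to 233 higher and 2 to 49 lower over the left-out libraries. The cause was not tested. Same-numbered libraries of the groups had deviations correlated at 0.145, -0.0551 and 0.279, and differently numbered ones at -0.229 to 0.119. Replicates 1 and 3 thus correlated best with their own number, and replicate 2 did not. The main test took no pairing from the numbers, and whether they mark a shared batch was not tested. Precision is limited by 3 mice per group, and for Anxa1 also by 26 to 60 counts per library.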
